A study of Mus musculus with 2 samples.

Results

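The sites described here are accessible stretches of mouse thymus chromatin that lie between genes but near them. A member was an autosomal peak of DNase-seq signal whose midpoint fell outside every gene body of the GENCODE M21 annotation. That midpoint also lay over 1 kb and at most 50 kb from the nearest annotated transcription start site. Mouse 1 had 12,365 such peaks among 57,973 autosomal peaks (59,484 on all chromosomes), and mouse 2 had 15,784 among 71,126 (72,913 on all). Joining members of the 2 mice that overlapped by at least 1 bp gave 9,722 shared sites. Of these, 9,520 held exactly 1 peak from each mouse.

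The material was whole thymus of female B6CASTF1/J mice, 36 days old, an F1 hybrid of the strains C57BL/6J and CAST/EiJ. Each of the 2 libraries came from its own mouse, the animals being numbered as biological replicates 1 and 2 and called mouse 1 and mouse 2 here. There was no second condition, so spreads over the 2 libraries cover mouse, tissue and library together. An exact two-sided permutation test of 2 values against 2 cannot give a p below 0.333.

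DNase I cuts where nucleosomes are displaced, so peaks of cutting mark DNA that proteins can reach. Accessible sites away from start sites include enhancers, which transcription factors bind to raise transcription of a gene at a distance, and sites of the zinc-finger protein CTCF, which anchors chromatin loops. In developing T cells, enhancers are bound by RUNX, ETS, TCF-1 and E-protein factors, among others. Most thymus cells are thymocytes, the developing T cells, set in a framework of epithelium and stroma. In whole tissue, fewer cells with an open site and less opening per cell cannot be told apart.

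The tissue label was checked at promoters. Of 9 thymocyte markers, among them Cd4, Cd8a, Lck and Rag1, 9 had a promoter peak in both mice, with signals of 2.44 to 12.7 in mouse 1 and 2.70 to 21.1 in mouse 2. The signal is the height that the authors deposited with each peak, treated here as depth-normalised. None of the 3 B-cell markers and none of the 3 myeloid markers had a listed promoter peak in either mouse, and their summed signals were 0. The wider lists used below were less clear-cut, since 6 of 15 B-cell genes, Blk among them, and 6 of 16 myeloid and dendritic genes, Itgam among them, had a promoter peak in both mice. Of 3 thymic epithelial markers 1 had a peak in both mice (Epcam, 0.976 and 2.16), with Foxn1 and Psmb11 at 0. Of 3 stromal markers 1 did (Pecam1, 5.44 and 3.12), with Col3a1 and Dcn at 0.

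Sequences of 8 sites show what such DNA looks like. Each is the reference sequence of mouse build GRCm38 (mm10) from RefSeq, on the plus strand. Capitals mark matches, on either strand, to consensus letters. RUNX factors were searched as TGTGGTT, the ETS family as AGGAAGT and TCF/LEF factors as CTTTGAT. E proteins were searched as CAGCTG, which is one form of the E-box, and as the other form CAGGTG. The letters AGATAA stood for GATA factors, and for MYB the letters AACTGAC. SP and KLF factors had GGGCGG, while CREB factors had TGACGTCA. CTCF has a longer consensus, used by name. A match describes the letters and is not proof of binding. The first 4 are the strongest sites of at most 300 bp nearest to a gene of each of 4 thymocyte gene lists. The Lck site (chr4:129575301-129575500) lies 1,760 bp upstream of the gene for a T-cell receptor kinase, and its signals were 11.1 and 19.6 in mouse 1 and mouse 2. The Tcf7 site (chr11:52314081-52314380) lies 31,217 bp upstream of the gene for TCF-1, with signals of 20.8 and 23.3. The Ccr7 site (chr11:99136501-99136740) lies 18,456 bp downstream of the start of a chemokine receptor gene, with signals of 12.2 and 16.3. The Cd69 site (chr6:129284481-129284700) lies 9,155 bp upstream of the gene for an activation marker, with signals of 9.80 and 6.19.
Lck site: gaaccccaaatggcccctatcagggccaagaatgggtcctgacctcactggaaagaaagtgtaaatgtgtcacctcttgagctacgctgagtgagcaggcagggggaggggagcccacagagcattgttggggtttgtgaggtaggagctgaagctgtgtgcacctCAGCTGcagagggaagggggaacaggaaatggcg
Tcf7 site: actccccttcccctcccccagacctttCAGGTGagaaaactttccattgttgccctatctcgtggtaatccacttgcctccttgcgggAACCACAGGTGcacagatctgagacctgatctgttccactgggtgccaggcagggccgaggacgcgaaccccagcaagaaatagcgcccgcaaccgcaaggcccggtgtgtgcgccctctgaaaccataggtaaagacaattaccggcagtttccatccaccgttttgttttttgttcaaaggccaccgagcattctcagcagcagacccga
Ccr7 site: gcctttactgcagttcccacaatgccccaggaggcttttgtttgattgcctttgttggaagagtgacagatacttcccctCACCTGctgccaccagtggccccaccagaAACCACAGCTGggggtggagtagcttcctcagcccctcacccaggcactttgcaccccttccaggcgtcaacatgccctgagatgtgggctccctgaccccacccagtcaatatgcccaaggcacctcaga
Cd69 site: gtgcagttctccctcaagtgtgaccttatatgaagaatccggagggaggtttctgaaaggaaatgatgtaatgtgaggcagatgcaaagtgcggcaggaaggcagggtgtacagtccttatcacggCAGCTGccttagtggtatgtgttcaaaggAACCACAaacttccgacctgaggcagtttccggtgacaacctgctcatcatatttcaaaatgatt
The other four show single features. The Lag3 site (chr6:124903581-124903860) was the strongest site of at most 300 bp with a CTCF match, at 12.7 and 30.0. The site nearest to Atp6v1g3 (chr1:138299581-138299800) was the strongest of that length among those matching 4 of the 7 T-lineage motifs counted below, at 8.17 and 9.80. The Ccne1 site (chr7:38084881-38085120) was the strongest CpG-rich one, with 4 SP/KLF matches and signals of 21.2 and 54.0. The last is the central 300 bp (chr14:54227411-54227710) of a 400-bp site, 7,040 bp downstream of the start of Trac, the T-cell receptor alpha constant gene, whose known enhancer lies downstream of it. Its signals were 28.0 and 27.8, and it holds CREB, GATA and joined RUNX and E-box letters.
Lag3 site: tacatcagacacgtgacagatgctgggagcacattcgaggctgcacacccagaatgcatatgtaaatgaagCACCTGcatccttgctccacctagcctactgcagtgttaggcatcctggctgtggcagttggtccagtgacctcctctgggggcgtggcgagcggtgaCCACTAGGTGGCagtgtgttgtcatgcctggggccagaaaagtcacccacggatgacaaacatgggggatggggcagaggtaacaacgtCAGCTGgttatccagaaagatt
Atp6v1g3 site: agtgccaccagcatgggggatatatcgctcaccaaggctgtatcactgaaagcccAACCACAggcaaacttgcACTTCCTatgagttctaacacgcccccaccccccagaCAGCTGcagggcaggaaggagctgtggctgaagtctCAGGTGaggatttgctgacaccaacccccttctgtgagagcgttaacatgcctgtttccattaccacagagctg
Ccne1 site: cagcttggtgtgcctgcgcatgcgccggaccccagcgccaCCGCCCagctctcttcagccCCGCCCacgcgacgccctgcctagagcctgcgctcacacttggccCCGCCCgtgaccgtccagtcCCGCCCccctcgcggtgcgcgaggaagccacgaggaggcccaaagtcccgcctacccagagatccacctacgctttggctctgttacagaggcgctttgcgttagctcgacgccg
Trac site: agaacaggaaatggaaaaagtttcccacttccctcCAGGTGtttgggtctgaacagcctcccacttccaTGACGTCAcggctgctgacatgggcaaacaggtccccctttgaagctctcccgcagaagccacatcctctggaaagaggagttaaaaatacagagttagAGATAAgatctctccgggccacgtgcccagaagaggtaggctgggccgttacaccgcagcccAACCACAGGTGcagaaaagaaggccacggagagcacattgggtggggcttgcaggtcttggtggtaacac

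Members made up 21.8% ± 0.610 (SD, n = 2 libraries) of autosomal peaks, beside 42.4% ± 2.66 at promoters (midpoint within 1 kb of a start site) and 29.0% ± 0.899 in introns. Peaks over 50 kb from any start site made up only 1.95% ± 0.0344. Members were close to intronic peaks in height and GC content, but were more often CpG-rich. Their median signal was 1.02 in mouse 1 and 1.2 in mouse 2, against 1.01 and 1.14 in introns. Promoter peaks were higher, at 1.79 and 2.81, and peaks over 50 kb away were lower, at 0.798 and 0.806. The exact permutation p was 0.667 against introns, although members were the higher in both mice, and 0.333, the smallest possible, against promoters and distant peaks. Median GC content, over the central 150 bp, was 52.7% and 54.0% in members and the same in introns, with 61.3% and 63.3% at promoters. Windows with at least 5 CpG per 100 bp made up 7.81% and 8.98% of members, against 3.93% and 4.88% of intronic peaks and 57% and 61.4% of promoter peaks. A footprint, a short stretch protected from cutting, lay in 91.0% and 91.9% of members and in 90.9% and 90.8% of intronic peaks. Annotated repeats made up most of the window in 6.83% and 8.82% of members, near the 5.87% and 8.12% of intronic peaks. Promoter peaks were lower, at 2.52% and 2.25%, and peaks over 50 kb away were at 6.36% and 10.96%. Of windows of 150 bp that tile the same intergenic sequence outside accessible regions, 34.5% were mostly repeat, far above the members.

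At the limits of the definition the signal changed little. Peaks outside gene bodies at 1,000 to 1,200 bp from a start site had a median of 0.919 in mouse 1 and 1.27 in mouse 2. The corresponding medians just inside the promoter limit, at 800 to 1,000 bp, were 0.871 and 1.26. At the far limit, members at 45,000 to 50,000 bp had medians of 0.868 and 0.829, and peaks at 50,000 to 55,000 bp had 0.817 and 0.846.

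Site density fell with distance from the nearest start site (the plot of density by distance). In mouse 1 it went from 32.5 members per Mb of eligible sequence at 1 to 2 kb to 9.61 at 20 to 50 kb, and in mouse 2 from 36.8 to 12.2. Beyond 50 kb the densities were 3.01 and 3.79 per Mb. Eligible sequence is all intergenic autosomal sequence in that distance range, 829 Mb in total, and the shared sites averaged 11.7 per Mb over it. The shared sites were denser on the upstream side close to genes, with 26.0 per Mb at 1 to 2 kb upstream against 13.0 at 1 to 2 kb downstream. Gene bodies are excluded, so sequence 1 to 2 kb downstream is eligible only where the gene ends within 2 kb of that start site. It covered 10.8 Mb, against 28.6 Mb upstream, so the 2 sides need not border the same genes. From 10 to 20 kb the sides were alike, at 11.4 and 12.1 per Mb. Over the whole range 61.4% of shared sites lay upstream, where 58.0% of the eligible sequence lies.

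**Figure D1:**
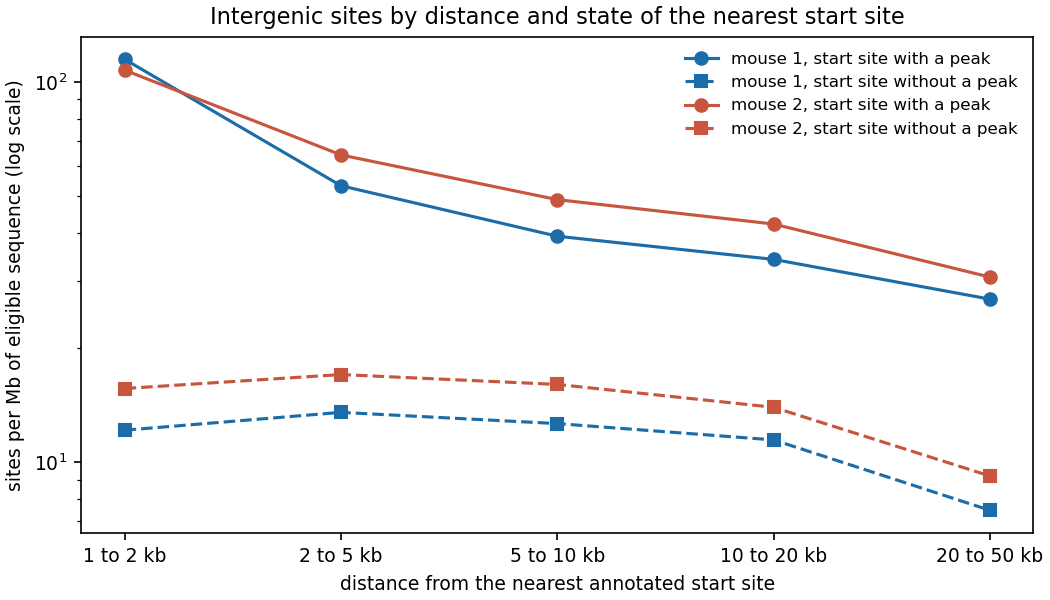
Density of intergenic DNase-seq sites (per Mb of eligible sequence) by distance from the nearest start site (kb), for mouse 1 and mouse 2, on a log axis and split by whether that start site had a peak (solid) or not (dashed). At 1 to 2 kb, mouse 1 had 115 members per Mb near open start sites and 12.1 per Mb near closed ones.

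Most of that decline lay beside start sites that were open, meaning that a peak midpoint of the same mouse lay within 1 kb of them. Near open start sites, mouse 1 had 115 members per Mb at 1 to 2 kb, 53.3 at 2 to 5 kb, 39.3 at 5 to 10 kb, 34.1 at 10 to 20 kb and 26.8 at 20 to 50 kb. Near closed start sites the same mouse had 12.1, 13.5, 12.6, 11.5 and 7.48 per Mb. Mouse 2 gave the same order, with 107 per Mb near open and 15.6 per Mb near closed start sites at 1 to 2 kb. At 20 to 50 kb mouse 2 had 30.7 and 9.21. The nearest start site was open for 40.2% and 43.9% of members, although only 14.3% and 17.4% of eligible sequence has an open nearest start site. Among all annotated start sites 38.1% and 42.2% were open, lower than for members in both mice (exact permutation p = 0.667). For peaks over 50 kb away the shares were 23.6% and 27.7% (exact permutation p = 0.333).

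The nearest start site need not belong to the gene that a site acts on. For 48.5% of shared sites it belonged to a protein-coding gene, for 17.8% to a lincRNA and for 15.7% to a processed pseudogene. Sites came in groups: the median distance to the nearest other shared site was 7,010 bp, and 25.2% had a neighbour within 1 kb. Chromosome 11 was densest, at 23.7 shared sites per Mb of eligible sequence, and chromosome 14 sparsest, at 8.74.

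The strongest sites, ranked by the mean of the 2 deposited signals, were largely CpG-rich. The 10 with the highest mean signal lay nearest to Cirbp, Ccne1, Trappc9, Zfp395, Gm49539, Fbrs, Kcnn1, Cpeb4, Bicdl1 and Trac. For 5 of them (Gm49539, Fbrs, Kcnn1, Cpeb4 and Bicdl1) the RefSeq annotation has a start site within 1 kb. The Cirbp site (chr10:80159781-80160180), 6,004 bp upstream of this gene for a cold-inducible RNA-binding protein, led by this mean with 25.5 in mouse 1 and 54.4 in mouse 2. The mean gives more weight to mouse 2, whose signals ran higher. In mouse 1 alone the Trac site was the highest of all shared sites (28.0), and the Fbrs site (26.5) also exceeded the Cirbp site. The Trac site was the exception among the 10, with a CpG content of 4.00 per 100 bp and equal signals in both mice. In the other nine, CpG content was 6.00 to 10 per 100 bp and mouse 2 was higher, by log2 ratios of 0.50 to 1.61. Across all shared sites, 927 (9.54%) were CpG-rich, meaning at least 5 CpG per 100 bp in the central 150 bp. Their median signals were 1.73 and 4.35, against 1.17 and 1.72 in the 8,795 other sites. A start site in the RefSeq annotation lay within 1 kb of 211 of the CpG-rich sites, and within 1 kb of 741 (7.62%) of all shared sites. Such sites are distal only in GENCODE.

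Consensus motif matches were counted in the central 150 bp of each shared site. The background was 5,412,290 windows of 150 bp that tile the eligible sequence outside accessible regions of either mouse. CTCF letters stood furthest apart: 1,120 shared sites (11.5%) held a match, against 0.0373% of background windows, a 309-fold difference. With accessible windows kept in the background it was 156-fold. SP/KLF letters, bound by zinc-finger factors of GC-rich promoters, were in 11.8% of sites against 1.12% (10.5-fold). EGR letters (GCGTGGG) were in 2.05% against 0.324% (6.32-fold). They were at 2.37-fold at 45 to 55% GC, and at 5.15-fold with the letters written backwards. CREB letters were in 0.607% against 0.0749% (8.11-fold), from only 59 sites. NF-kB, searched by a longer consensus, was at 2.28-fold, and 1.06-fold at 45 to 55% GC. Motifs of several other factors that act in T-cell development were also more frequent in sites, while others, given below, were not. ETS letters were in 12.2% against 3.62% (3.36-fold). The E-box CAGCTG was in 17.8% against 5.16% (3.45-fold), the E-box CAGGTG in 25.7% against 8.91% (2.89-fold), and RUNX letters in 7.79% against 3.59% (2.17-fold). The PU.1 letters GAGGAAGT, which contain the ETS letters, were in 3.77% against 0.906% (4.17-fold).

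**Figure D2:**
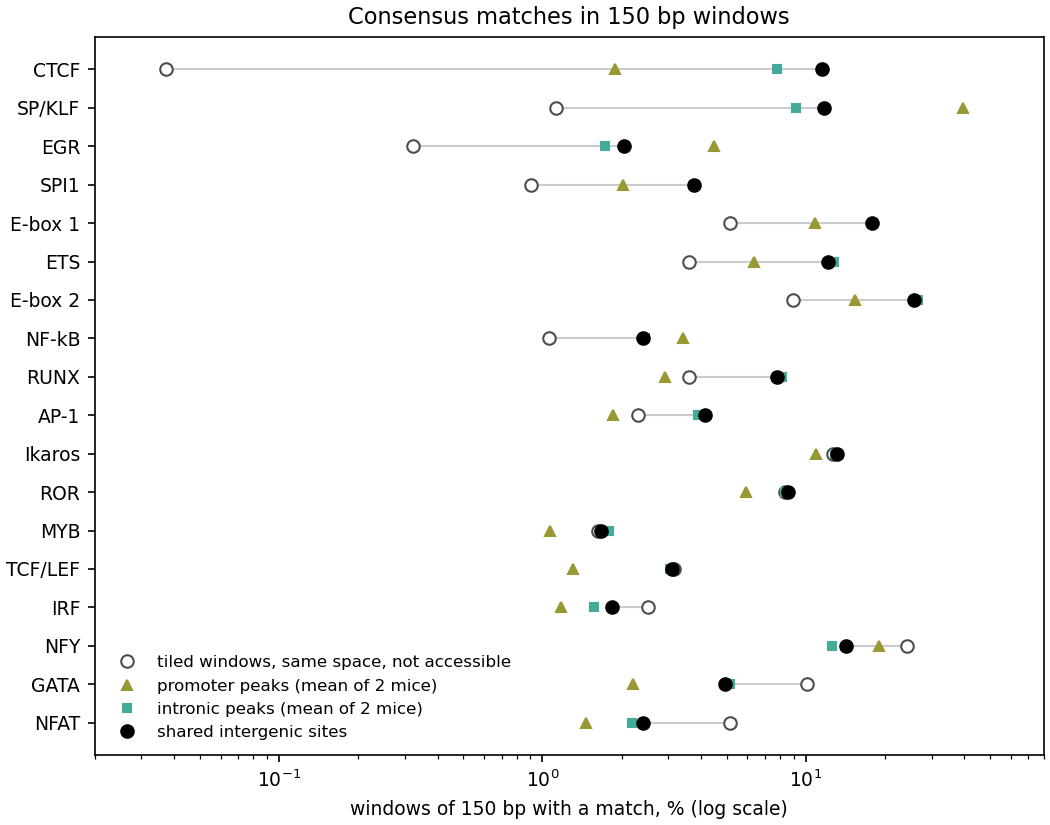
Percent of windows of 150 bp that hold each consensus motif (log axis), for the shared intergenic sites and for tiled windows of the same sequence outside accessible regions, for motifs matched in at least 100 sites. Intronic and promoter peaks are means of the 2 mice, and E-box 1 is the form CAGCTG. CTCF shows the widest gap, 11.5% against 0.0373%, and GATA and NFAT lie below their background.

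GC content differed between sites (median 53.3%) and background windows (41.3%), so the shares were also taken within windows of 45 to 55% GC. There ETS remained at 3.36-fold and RUNX at 2.65-fold, while SP/KLF came to 3.39-fold and the 2 E-boxes to 1.94-fold and 1.93-fold. TCF/LEF letters, for the factor TCF-1 of early T-cell development, were in 3.11% of sites against 3.16% of background (0.983-fold), but 1.92-fold at matched GC. GATA letters were in 4.94% against 10.2% (0.487-fold), and at matched GC 1.03-fold. NFAT letters (TGGAAAA) were in 2.41% against 5.17% (0.465-fold), and at matched GC 0.860-fold. MYB letters were at 1.03-fold, and 1.2-fold at matched GC. Ikaros letters (TGGGAA) were at 1.04-fold and ROR letters (AGGTCA) at 1.03-fold, and at matched GC at 0.868-fold and 0.871-fold. The letters of a consensus written backwards keep its base composition, but not always its CpG. The CTCF letters and the E-box CAGCTG gain a CpG when reversed, and CREB letters lose theirs. Backwards, the fold was 0.955 for ETS, 0.728 for RUNX, 0.473 for TCF/LEF, 1.23 for the E-box CAGGTG and 8.95 for SP/KLF. The E-box CAGCTG was at 2.07-fold backwards, above its 1.94-fold at matched GC. No shared site held the CTCF letters backwards in its central 150 bp, but only 0.00115% of background windows did, too few for this to serve as a control. Of 18 motifs with at least 100 matched sites, 9 were at least 2-fold above background, 6 were at matched GC, and 4 were when written backwards.

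Motif shares of members were close to those of intronic peaks and further from those of promoter peaks. CTCF letters were in 9.37% and 10.7% of members in mouse 1 and mouse 2, in 7.13% and 8.40% of intronic peaks, and in 1.58% and 2.19% of promoter peaks. SP/KLF letters were in 9.94% and 11.8% of members, and in 37.2% and 41.9% of promoter peaks. RUNX letters were in 8.31% and 6.49% of members, 9.30% and 7.01% of intronic peaks, and 3.20% and 2.66% of promoter peaks. These differences were not tested, since each class gives only 2 library values.

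Seen from the genome, a large share of CTCF letters lay in open sites. Eligible sequence holds 4,418 CTCF matches, and 1,192 of them (27.0%) lay in shared sites. Regions where the deposited false discovery rate of local cutting was under 0.05 covered 38.8% of them in mouse 1 and 47.3% in mouse 2. For RUNX 0.548% of 211,285 matches lay in shared sites, for ETS 0.824% of 216,133, and for SP/KLF 2.91% of 74,141. Written backwards, these letters were at 0.213%, 0.278% and 2.51%. The CTCF consensus has 12 letters, those of RUNX and ETS 7 and that of SP/KLF 6, so the shares are not directly comparable. Of 79 matches to CTCF letters written backwards, 1 lay in a shared site.

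Footprints, which the authors deposited as a separate list, covered 23.0% of the bases of these windows in mouse 1 and 27.0% in mouse 2. CTCF matches were centred in a footprint in 90.1% and 99% of cases (1,127 matches). SP/KLF matches were in footprints in 61.2% and 71.5%, and TCF/LEF matches in 57.2% and 46.3%. CREB letters reached 78.0% and 71.2%, from only 59 matches. RUNX matches, at 28.8% and 26.5%, were near the share of bases covered, and ETS matches, at 18% in both mice, below it. GATA matches, at 14.7% and 13.1%, were also below it. Base coverage does not account for base composition, which backwards letters keep, though without the CpG in the case of CREB. Backwards, SP/KLF letters were in footprints in 55.7% and 64%, close to their shares as written. Backwards shares were below those as written for RUNX (10% and 14.7%), ETS (8.78% and 15%), TCF/LEF (8.77% and 18.4%) and CREB (19.2% and 32.7%). Backwards GATA letters (14.2% and 16.5%) were lower in mouse 1 and higher in mouse 2, and both backwards E-boxes were higher in both mice.

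Members were compared between the mice. Of mouse 1's members 79.6% overlapped a member of mouse 2, and of mouse 2's members 62.7% overlapped one of mouse 1 (mean 71.1% ± 12 SD, n = 2). Sharing rose with height. In the lowest 20% by signal 55.2% of mouse 1's and 21.9% of mouse 2's members overlapped any peak of the other mouse, and in the highest 20% 98.1% and 97.5% did. Members without an overlap numbered 2,501 and 5,869, with median signals of 0.606 and 0.685. Of these, 62.5% and 54.4% still met a stretch in the other mouse where cutting passed the deposited threshold.

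The strongest members without a peak in the other mouse were weaker in mouse 1 than in mouse 2. In mouse 1 the 5 strongest lay nearest to Gm12974 (6.95), Zfp239 (6.31), Psma6 (4.78), Spats1 (4.67) and Sit1 (4.40). In mouse 2 they lay nearest to AC168050.2 (12.4), Hivep2 (10.4), Gm6607 (9.66), Gm25009 (9.64) and Ap1m2 (8.11). All 10 met such a stretch in the other mouse.

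The signals of shared sites ran higher in mouse 2. The log2 ratio of mouse 2 to mouse 1 had a median of 0.54 (SD 0.79 over 9,722 sites), against 0.76 over all 45,473 shared autosomal sites. Mouse 2 was at least 2-fold higher at 3,121 shared intergenic sites (32.1%), where the share over all shared autosomal sites was 39.8%. Mouse 1 was at least 2-fold higher at 242 (2.49%), against 1.53% overall. With the median over all shared autosomal sites taken as 0, the median of these sites was -0.22, and 615 (6.33%) were at least 2-fold higher in mouse 2. Across sites the log2 signals of the mice had a Pearson r of 0.78 and a Spearman rho of 0.74. The sites share 2 libraries, so this is a description.

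The ratio moved with base composition. Over 5 equal groups of sites, from the lowest to the highest GC content, its median was 0.07, 0.28, 0.39, 0.62 and 1.04. Across sites GC content and the log2 ratio had r = 0.40 and rho = 0.38. Because of this, motif groups were compared again among the 5,483 shared sites of 45 to 55% GC.

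On the deposited scale, the ratio between the mice was highest at sites with CTCF letters (the plot of ratios by motif). Which sites differ most depends on the scaling, since the median over all shared autosomal sites was itself 0.76. The median site with them stood at 0.884 in mouse 1 and at 2.15 in mouse 2, and their median log2 ratio was 1.33, against 0.43 in the 8,602 sites without them. Of the 1,120 sites, 71.3% were at least 2-fold higher in mouse 2. At matched GC the median ratio was 1.24 in 687 sites with CTCF letters and 0.18 in 4,796 without, and mouse 2 was the higher in 95.8% of the 687. Mouse 1's signal was lower at sites with CTCF letters (0.855) than at the other sites of this GC range (1.21), while mouse 2's was higher (1.89 against 1.52).

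**Figure D3:**
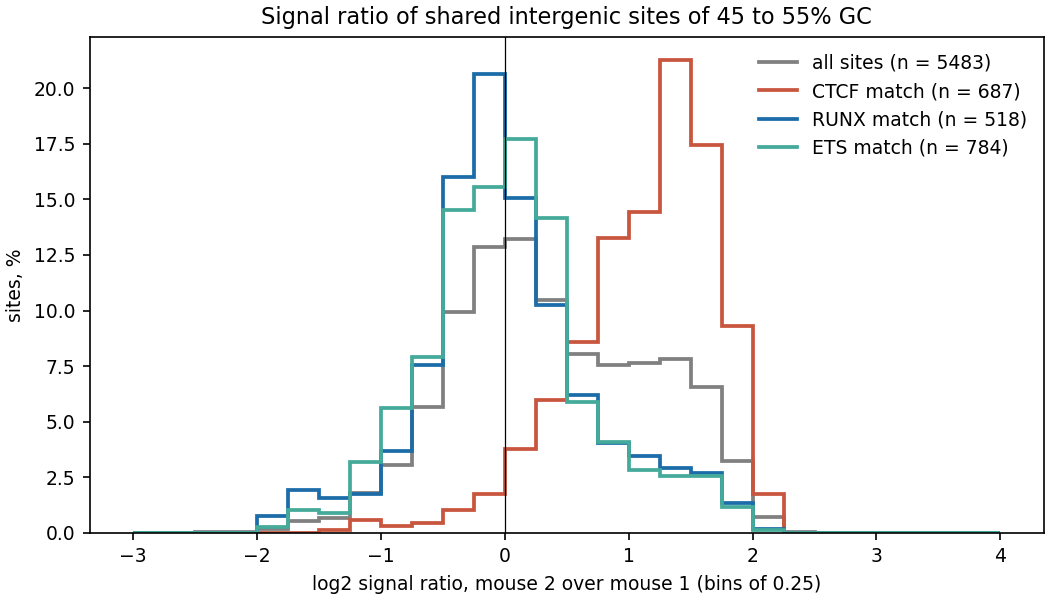
Distribution of the log2 ratio of mouse 2 to mouse 1 signal over shared intergenic sites of 45 to 55% GC (percent of sites per bin), for all 5,483 sites, 687 with CTCF letters, 518 with RUNX letters and 784 with ETS letters. The CTCF curve is centred near its median of 1.24, and the RUNX and ETS curves near 0.

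Sites with RUNX or ETS letters had nearly equal deposited signals in the mice, which puts them below the median ratio of 0.76 over all shared autosomal sites. RUNX letters marked sites with a median ratio of 0.09 against 0.58 without them, and at matched GC -0.06 in 518 sites against 0.33 in 4,965. For ETS letters the medians were 0.18 against 0.61, and 0.02 in 784 sites against 0.36 in 4,699 at matched GC. TCF/LEF letters gave 0.11 against 0.55. For SP/KLF the ratio was higher with the letters, 0.89 against 0.49, and at matched GC 0.46 against 0.27. Since each mouse is 1 library, a difference between the animals and one between the libraries cannot be told apart.

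The members found in a single mouse come from the same 2 libraries. Each is listed as a peak in that mouse alone, so their motif shares restate this division and do not test it. The shares were not taken at matched GC. Median GC content was 49.3% in mouse 1's unshared members and 54.0% in mouse 2's. CTCF letters were in 2.16% of mouse 1's unshared members and in 9.12% of mouse 2's. RUNX letters were in 10.7% of mouse 1's and 5.04% of mouse 2's, ETS letters in 13.8% and 5.72%, and TCF/LEF letters in 5.60% and 1.62%. The E-boxes differed little, at 13.4% and 13.2% for CAGCTG and at 21.4% and 20.2% for CAGGTG. Of mouse 1's members with CTCF letters 95.3% overlapped a peak of mouse 2, against 78.2% of those without. In mouse 2 the shares were 68.3% and 62.2%.

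The 7 motifs of T-lineage factors (RUNX, ETS, TCF/LEF, both E-boxes, GATA and MYB) were counted together. None was found in 4,406 shared sites, 1 in 3,759, 2 in 1,338, 3 in 200 and 4 in 19. In mouse 1 the median signal over these classes was 1.10, 1.22, 1.55, 1.68 and 1.63. In mouse 2 it was 1.88, 1.81, 1.77, 1.60 and 1.46, so from 0 to 3 motifs the medians rose in mouse 1 and fell in mouse 2. The class of 4 motifs holds only 19 sites, and its median was below that of 3 motifs in both mice. Sites with at least 2 of the 7 had a median log2 ratio of 0.16, and the 8,165 others 0.64. At 45 to 55% GC their median signals were 1.56 in mouse 1 and 1.55 in mouse 2, against 1.09 and 1.57 in the others. The motifs were not alike in mouse 2. Its median was higher with the E-box CAGCTG (1.92 against 1.82) and with CAGGTG (1.95 against 1.81), and lower with the letters of RUNX, ETS, TCF/LEF, GATA and MYB.

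In the Tcf7, Ccr7 and Trac sequences above, the RUNX letters run directly into an E-box. This was looked for after the sequences were seen. Of 1,157 RUNX matches in shared sites, 26 (2.25%) ran into an E-box, against 1,780 of 210,128 (0.847%) elsewhere in eligible sequence. The 26 include the Tcf7, Ccr7 and Trac matches, and GC content was not matched. E-box letters alone were 3.45-fold (CAGCTG) and 2.89-fold (CAGGTG) above background in shared sites, so joining beyond that was not tested. The 26 sites had median signals of 1.40 and 1.74.

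Sites were assigned to the protein-coding gene with the nearest start site within 50 kb, which took in 7,556 shared sites (77.7%). At least 1 site fell to 4,256 of 20,807 autosomal genes (20.5%), and at least 5 to 206. The 2 genes with most sites, 22 each, were Tcf7 and Zfp36l2, which encodes an RNA-binding protein that destabilises transcripts. Ddit4 and Vdac1 had 14 each, Azin1, Irf2bpl and Ptma 13 each, Cd2 12, and Gm525, Grb7, Olfr1423 and Srp14 10 each. Genes with a promoter peak in both mice had a site in 25.8% of cases and 0.275 sites per 10 kb of their eligible sequence, against 13.3% and 0.0896 for other genes.

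**Figure D4:**
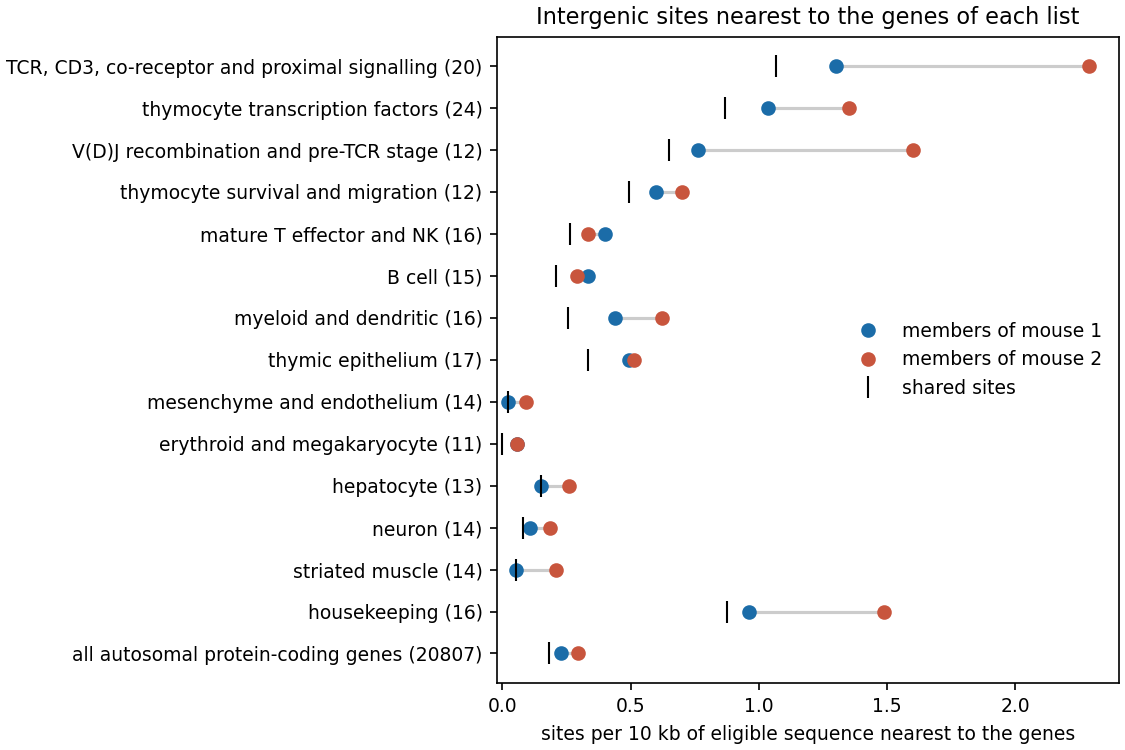
Intergenic sites per 10 kb of eligible sequence nearest to the genes of 14 lists and to all autosomal protein-coding genes, with dots for the members of each mouse and ticks for shared sites. The ticks of the TCR and CD3 list and of all genes stand at 1.07 and 0.182 per 10 kb.

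The gene lists of thymocytes had more sites than all genes together, where 20.5% of genes had a site and density was 0.182 per 10 kb. Of 20 genes of the T-cell receptor, CD3, co-receptor and proximal signalling list, 12 had a site (1.07 per 10 kb). So did 18 of 24 thymocyte transcription factors (0.866), 6 of 12 V(D)J and pre-TCR genes (0.648), and 8 of 12 of survival and migration (0.494). The housekeeping list, with 7 of 16 genes and 0.876 per 10 kb, was as dense. Mature T effector and NK genes had 8 of 16 (0.266), led by Klrb1c with 5 and Il2ra with 3.

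Lists of other cell types ranged from below to above the level of all genes, and each had a lower density than the 4 thymocyte lists. B-cell genes had a site in 4 of 15 (0.208 per 10 kb), with 2 nearest to Igll1 and 1 to Blk. Myeloid and dendritic genes had 4 of 16 (0.257), with 4 nearest to Itgam and 1 to Adgre1. Thymic epithelial genes had 7 of 17 (0.336), with 5 nearest to Cldn4 and 3 to Krt8. Mesenchyme and endothelium had 1 of 14 (0.0229, Pecam1), erythroid and megakaryocyte 0 of 11, hepatocyte 3 of 13 (0.150, with Tat and Alb), neuron 3 of 14 (0.0799, with Camk2a and Slc17a7) and striated muscle 1 of 14 (0.0521, Myl2). Among housekeeping genes Actb had 6 and Eef1a1 3. The lists carry no test, and a neighbouring gene may own a site counted here. The contrast depends on the assignment to the nearest gene. When every site within 50 kb of a gene's start sites was counted, 16, 20, 9 and 8 genes of the 4 thymocyte lists had a site. By that count so did 10 of 15 B-cell, 9 of 16 myeloid, 7 of 14 mesenchyme and 6 of 11 erythroid genes, and 8,435 of all 20,807 genes.

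Among receptor and co-receptor genes, Cd2, for an adhesion molecule of T cells, had 12 sites. The strongest lay 5,368 bp downstream of its start (11 in mouse 1, 10.3 in mouse 2) and 7,772 bp upstream (4.88 and 15.8), so the latter differed more between the mice. Cd8b1, for the beta chain of the CD8 co-receptor, had 9 sites, all 15,093 to 22,997 bp downstream of its start. The highest of them, at 18,593 bp, reached 11.7 and 18.5, and the one at 15,093 bp 5.16 and 4.95. Cd3e, for a signalling chain of the receptor complex, had 6 (the highest in mouse 1 at 6,444 bp upstream, 4.30 and 2.38). Cd6 had 3, of which the highest in mouse 1, 5,427 bp downstream, had 8.93 and 9.89, and Lat, for the signalling adaptor, had 3. No shared site was nearest to 8 of the 20, among them Cd247, Cd27, Cd28, Cd3d and Cd3g. Several of these have little eligible sequence of their own, such as 0.240 kb for Cd3g.

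**Figure D5:**
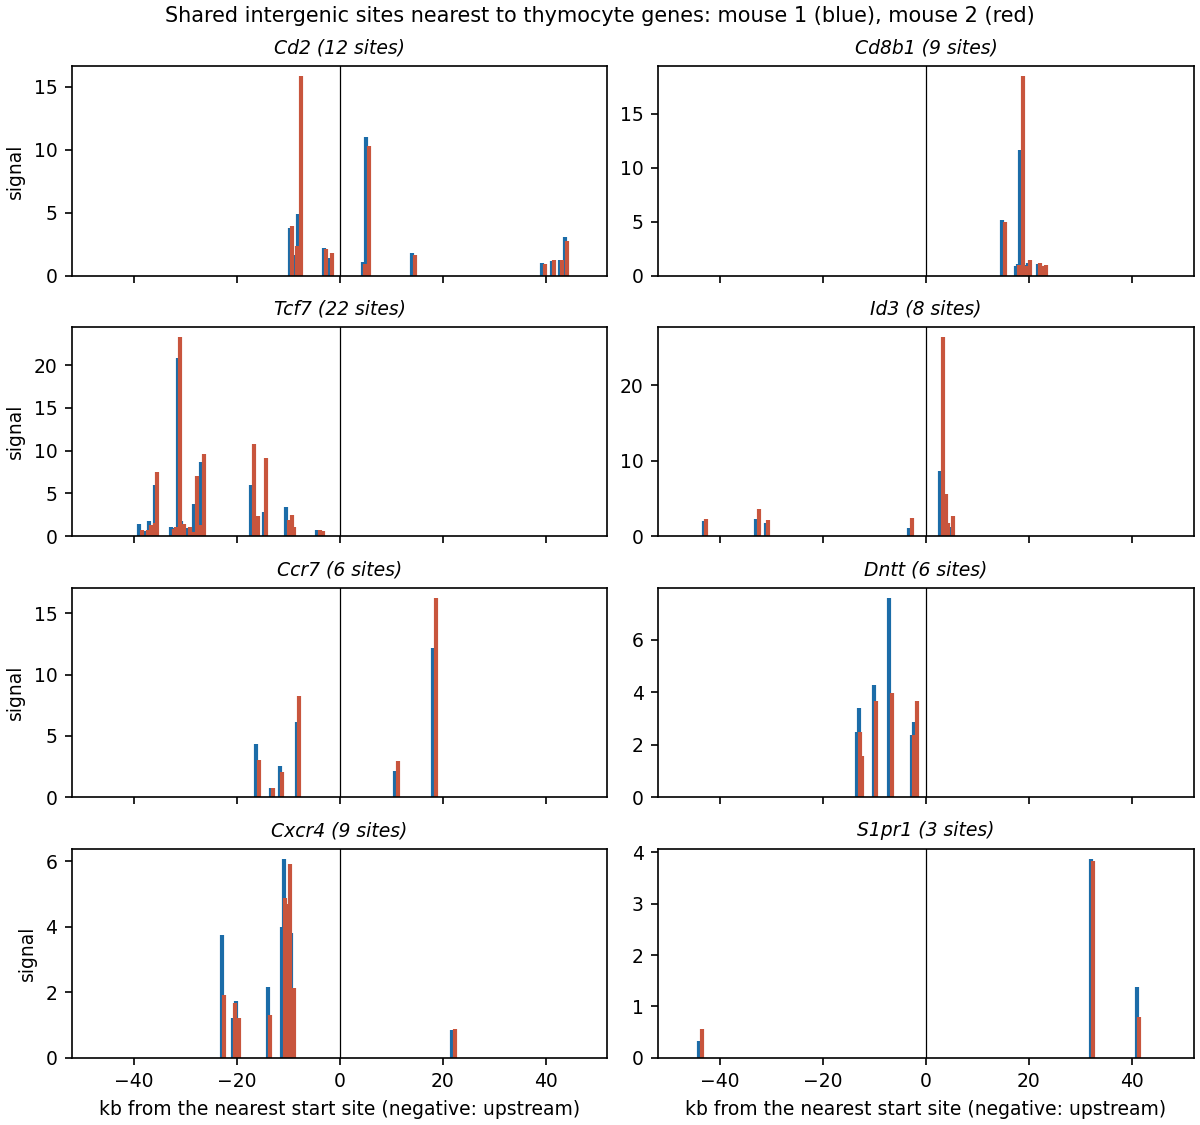
Shared intergenic sites nearest to 8 genes, by distance from the start site of the gene (kb, upstream negative), with bars for the signal in mouse 1 (blue) and mouse 2 (red), which can overlap where sites are close. Tcf7 has 22 sites, all upstream, and Cd8b1 9, all downstream.

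Among transcription factor genes, the 22 sites of Tcf7 all lay upstream, from 3,537 to 38,727 bp. The site printed above was the strongest, followed by 1 at 26,687 bp (8.66 and 9.67) and 1 at 16,887 bp (5.99 and 10.7). The signals of the 22 spanned 0.651 to 20.8 in mouse 1 and 0.529 to 23.3 in mouse 2. Id3, for an inhibitor of E proteins, had 8, of which the highest, 3,047 bp downstream, had 8.65 and 26.4. Runx3, for the factor of the CD8 lineage, had 8, with at most 3.25 and 6.77. Ets1 had 7, all upstream between 24,680 and 46,110 bp, with 6.34 and 4.16 at 44,150 bp, the highest in mouse 1. Egr1, an early gene of receptor signalling, had 6, the highest in mouse 1 at 3,432 bp upstream (6.31 and 8.67). No site was nearest to 6 of the 24 genes. Of these, Ikzf1 and Elf1 have no eligible sequence, and Foxp1 has 45.6 kb without a site. Ikzf3 was also without one.

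Among the V(D)J and pre-TCR genes, Dntt, for the terminal transferase that adds nucleotides at receptor gene junctions, had 6 sites. All lay upstream, with 7.59 and 3.97 at 6,874 bp, where mouse 1 was higher. Ccr7, a chemokine receptor gene placed on this list, had 6 of the list's 17 shared sites, and 30 members in mouse 2 against 6 in mouse 1. The density of the list thus rests in part on this gene. Hes1, a target of Notch signalling, had 2, and Dtx1 and Il7r had 1 each. The Il7r site, 44,845 bp upstream of this cytokine receptor gene, had 2.45 and 1.76. Rag1, Ptcra, Arpp21 and Ccr9 have no eligible sequence, so no site could be assigned to them. Notch1 has 30.7 kb and had none.

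Of the genes of survival and migration, Cxcr4, for a chemokine receptor of early thymocytes, had 9 sites. The highest in mouse 1 lay 10,508 bp upstream, at 6.09 and 4.70. S1pr1, for the receptor that mature thymocytes use to leave the thymus, had 3, of which the site 32,211 bp downstream had 3.88 and 3.82. Mcl1, for a survival protein, had 2, at 4.91 and 6.47 for the higher. Bcl2 and Bcl2l11 had 1 each, at 1.35 and 4.17 and at 0.887 and 0.987. No site was nearest to Bcl2l1, Ccr4 or Itgae.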

How the data were processed

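DNase-seq measured chromatin accessibility in 2 thymus libraries, which the labels give as separate mice. Peaks, cut rates and footprints came from the filtered alignments of each library on mm10, without pooling, per the deposited text files. For the aligner and callers: not given in the sources used here. The peak signal that the authors deposited is in whole multiples of 1 step per library. It was treated as depth-normalised, and the name of its scale is not given. The median member stood at 160 steps in mouse 1 and 238 in mouse 2, the lowest at 10 in both, so weak members are the least precise. In the cut-rate lists the authors deposited p-values in the form of an FDR, all below 0.05.

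The shorter of 2 peak lists per library was used. Peaks were placed by midpoint against GENCODE M21, and overlaps were checked with bedtools 2.31.1. Everything else used Python 3.11.15, pandas 2.3.3 and SciPy 1.17.1, checked on simulated data. The GRCm38 reference was searched for 24 consensus motifs on both strands, without CAST/EiJ alleles. The longest printed sequence was set at 300 bp. Named were the 10 strongest shared sites, the 5 strongest unshared members per mouse, the 12 genes with most sites, the 5 leading genes and up to 5 without a site of each of the 4 thymocyte lists, and the 2 leading genes of each other list of the 14. The Lag3, Atp6v1g3, Ccne1 and Trac sites were picked for printing after their values were seen. The members and lists were chosen with earlier results of these data known. All gene names of the lists matched, and some are not reported here. Peak classes and start sites were compared by exact permutation of the 2 library values per class, which ignores that classes share libraries. Motifs, ratios and gene lists carry no test. Alternatives covered the peak list, overlap, distance limits, annotation, window, signal, motif direction, GC content and each library alone.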

Additional observations from a re-analysis of the deposited data

How the results depend on the processing

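Of 270 alternatives, 171 were counted as unmoved (within the spread of the 2 libraries, within 20 bp for widths, within 0.1 for log2 ratios between the mice, or within 1.5 times for counts), 80 moved the value and 19 changed its sign. Alternatives of GC 45 to 55%, RefSeq start sites, no CTCF sites, all windows and centring were chosen after seeing the data. No paired analysis of groups was possible because there is 1 group, with no same-numbered samples across groups. Peak classes are paired within each library, and the permutation test did not use that pairing. The longer peak list gave 15,492 shared sites and peaks in the upper 50% of signal 4,058. The member minus intron difference in median signal (0.04) became 0.076 over shared peaks, 0.13 over strong peaks and -0.025 in the longer list. Against promoters (-1.19) it was -2.13 shared and -2.55 strong. GC against promoters (-9.00) was -9.67 shared, -10.7 strong and -7.67 in the longer list, where GC against distant peaks was -0.33 and width 30.0 bp more. Footprint shares in the longer list differed by -1.51 from introns, 20.6 from distant peaks and -1.99 from promoters. Against distant peaks they were 1.29 shared and -1.12 strong, and against promoters 1.28 strong. With protein-coding start sites alone the near to far density ratio was 2.87, the open share 61.4% and the open to closed density ratio 2.35. Backwards, log2 folds turned to -0.46 (RUNX), -0.066 (ETS), -0.16 (MYB), -0.22 (ROR) and -0.11 (AP-1), and 4 motifs passed 2-fold. At GC of 45 to 55% they turned to 0.94 (TCF/LEF), 0.047 (GATA), -0.20 (Ikaros), -0.20 (ROR) and 0.72 (IRF). TCF/LEF was 0.23 in mouse 1's members. Without CTCF sites the median ratio was 0.43 and the lowest GC group -0.069. Centring gave -0.22, -0.69 in the lowest and 0.28 in the highest, and 615 sites past 2-fold in mouse 2. Strong peaks gave 1,205. Counting every site within 50 kb, genes with a site numbered 10 (B cell), 9 (myeloid), 7 (mesenchyme), 6 (erythroid), 5 (hepatocyte), 6 (neuron), 7 (muscle), 11 (housekeeping) and 8,435 (all). The longer list gave 4 mesenchyme, 3 erythroid and 3 muscle genes. With either library alone the ranges were 4 to 7 myeloid, 1 to 4 mesenchyme, 1 to 1 erythroid, 3 to 5 neuron and 1 to 3 muscle genes. The cause of these changes was not tested.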
